A study of Mus musculus with 32 samples.

Results

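The change in RNA levels between the late 1-cell and the late 2-cell stage was described in mouse embryos made from mothers lacking an intact Dppa2 gene, labelled m-z+ in the Dppa2 arm of the study. The comparison rests on 4 total RNA libraries of a series of 32, chosen by the labels for genotype, stage and library type: 2 libraries of Dppa2 m-z+ embryos at the late 2-cell stage (28 hours after fertilization) and 2 of Dppa2 m-z+ embryos at the late 1-cell stage (12 hours). The letters m and z refer to the copy inherited from the mother and to the zygotic one, so an m-z+ embryo developed from an egg without an intact Dppa2 gene and carried an intact copy of its own. All 4 libraries came from a mixed B6/DBA background. Dppa2 m+z+ embryos, the controls of the same arm and background, gave 2 libraries at each stage, and Dppa4 m-z+ embryos, which lacked the maternal copy of the neighbouring gene Dppa4 on a B6 background, gave a further 2 at each stage. Dppa4 m+z+ embryos, the B6 controls of that arm, gave 2 at each stage, which entered the fit. PolyA libraries of wild-type B6 embryos (2 at each stage) and of 2-cell Dppa2 m-z+ embryos (3) served for description. The labels do not give the nature of the mutant allele, the number of embryos in a total RNA library, or whether replicate libraries came from separate mothers, and p-values therefore reflect the spread among libraries, which may be partly technical.

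In the mouse, the egg carries a store of RNA and protein laid down in the oocyte, and the embryo's own genome is silent or nearly so at fertilization. A minor wave of transcription starts in the 1-cell embryo and a major wave follows at the 2-cell stage, while much of the inherited RNA is deadenylated and degraded. Dppa2 and Dppa4 encode nuclear proteins with a SAP domain that bind DNA together, and in mouse embryonic stem cells they act upstream of Dux and of genes typical of the 2-cell embryo. The series set m-z+ against m+z+ embryos at both stages and also holds 2-cell embryos without either copy.

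The files hold FPKM, a fragment count scaled to transcript length and library size, so a value is a share of the RNA read in its library and the number of reads behind it is unknown. FPKM summed to 510860 and 608482 in the 2-cell m-z+ libraries, against 471322 and 452039 in the 1-cell m-z+ libraries. Replicates correlated across genes at r = 0.935 for the 2-cell pair and 0.980 for the 1-cell pair, where genes are not independent replicates. A lower RNA content per cell, fewer cells and fewer copies of a transcript cannot be told apart in such values. RNA of the mitochondrial genome took 26.0% and 21% of summed FPKM in the 2-cell libraries, against 12.3% and 11.3% in the 1-cell libraries. Nuclear protein-coding genes took 47.4% and 40.0% at the 2-cell stage, against 63.8% and 66.6% at the 1-cell stage, and the part of these shares in the changes below was not tested, apart from the other scalings given with them.

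Dppa2 itself (ENSMUSG00000072419, mm10, chr16:48303908-48319723, forward strand) was low in 1-cell m-z+ embryos and present at the 2-cell stage. It stood at 44.8 and 59.2 FPKM in the 2-cell m-z+ libraries, against 9.38 and 9.52 FPKM in the 1-cell m-z+ libraries (log2 change 2.33, SE 0.16, adjusted p = 1.42e-07). Both 2-cell libraries lay above both 1-cell libraries, and the FPKM means were 52.0 ± 10.2 and 9.45 ± 0.0991 (SD, n = 2 each). In m+z+ embryos Dppa2 stood at 49.7 and 53 FPKM at the 2-cell stage, against 32.3 and 32.7 FPKM at the 1-cell stage (log2 change 0.64, adjusted p = 0.00314). The 1-cell m-z+ embryos were thus below their controls by 1.68 on the log2 scale (adjusted p = 0.000701, and 0.0978 where only the Dppa2 arm was fitted), while the 2-cell m-z+ embryos differed from their controls by 0.01 (adjusted p = 1). The stage change of Dppa2 in m-z+ embryos exceeded that of the controls by 1.69 (SE 0.22), which did not pass (adjusted p = 0.0628). Dppa2 RNA in Dppa4 m-z+ embryos was at 45.5 and 44.1 FPKM at the 2-cell stage, against 60.2 and 50.4 FPKM at the 1-cell stage. The stage change of Dppa2 in Dppa2 m-z+ embryos was higher than in Dppa4 m-z+ embryos by 2.62 (SE 0.22, adjusted p = 0.00045). An FPKM value per gene adds up RNA of both parental alleles, whether mutant or intact.

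Dppa4 (ENSMUSG00000058550, chr16:48283733-48294237, forward strand), the partner gene on the same chromosome, was low at the 1-cell stage in both groups of this arm. In m-z+ embryos it stood at 42.7 and 80.4 FPKM at the 2-cell stage, against 6.39 and 5.81 FPKM at the 1-cell stage (log2 change 3.07, SE 0.39, adjusted p = 2.29e-05). Both 2-cell libraries lay above both 1-cell libraries, and the 2-cell pair differed in FPKM more than any other pair plotted with it. In m+z+ embryos Dppa4 stood at 63.4 and 58.3 FPKM at the 2-cell stage, against 3.52 and 5.16 FPKM at the 1-cell stage. The stage change of m-z+ embryos minus that of m+z+ embryos was -0.48 (SE 0.55, adjusted p = 0.864).

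**Figure D1:**
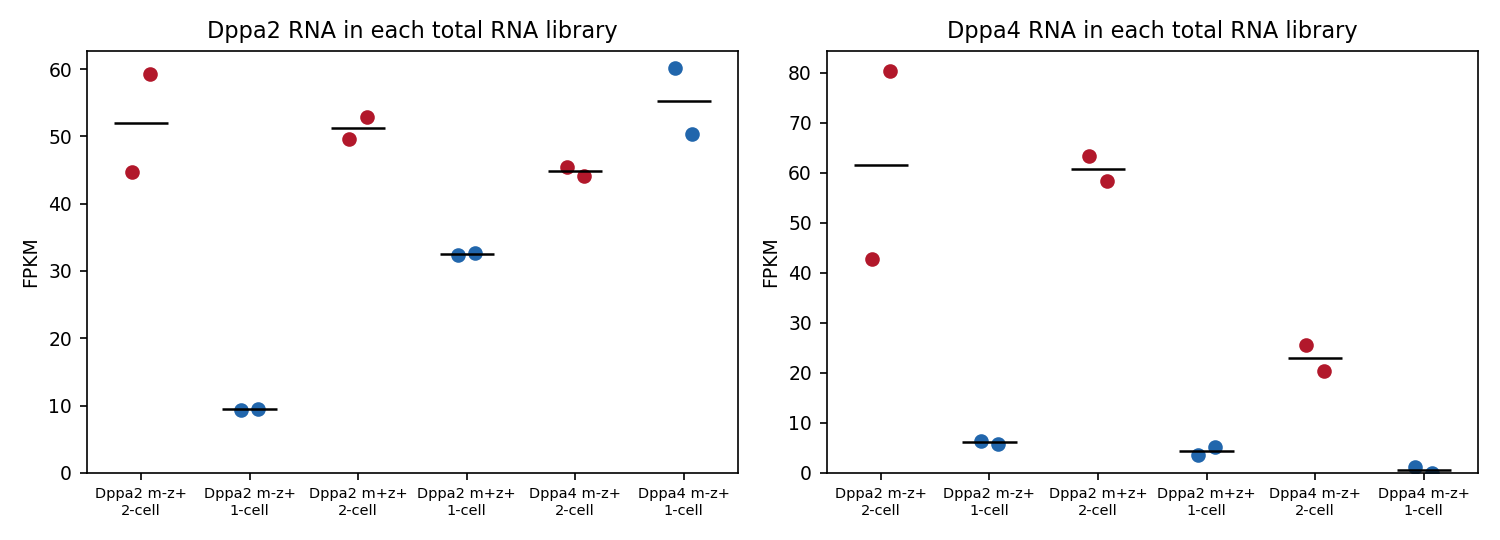
FPKM of Dppa2 (left) and Dppa4 (right) in each total RNA library of Dppa2 m-z+, Dppa2 m+z+ and Dppa4 m-z+ embryos, 2-cell in red and 1-cell in blue, with 1 point per library and a bar at the mean of 2. Dppa2 is at 44.8 and 59.2 FPKM in the 2-cell Dppa2 m-z+ libraries and at 9.38 and 9.52 FPKM in the 1-cell ones.

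Across the transcriptome the m-z+ embryos changed widely between the stages. limma called 4346 (28.8%) of 15068 tested genes higher at the 2-cell stage and 4286 (28.4%) lower, at an adjusted p under 0.05, and left 6436 uncalled. The rises were larger and more often started near 0: 1494 genes rose and 1030 fell by at least 2 on the log2 scale, and 245 rose and 36 fell by at least 4. Of the genes that rose, 1963 (45.2%) were under 1 FPKM in both 1-cell libraries. Of those that fell, 816 (19%) were under 1 FPKM in both 2-cell libraries. Both 2-cell libraries lay above both 1-cell libraries for 5822 genes (38.6%) and below them for 5715 (37.9%). The median log2 change of all genes was 0.02, so counts of a list below are to be read against 28.8% and 28.4%, and list medians against 0.02. Scaling each library to the same total, as in TPM, moved that median to -0.19 and the counts to 3794 rises and 5098 falls.

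**Figure D2:**
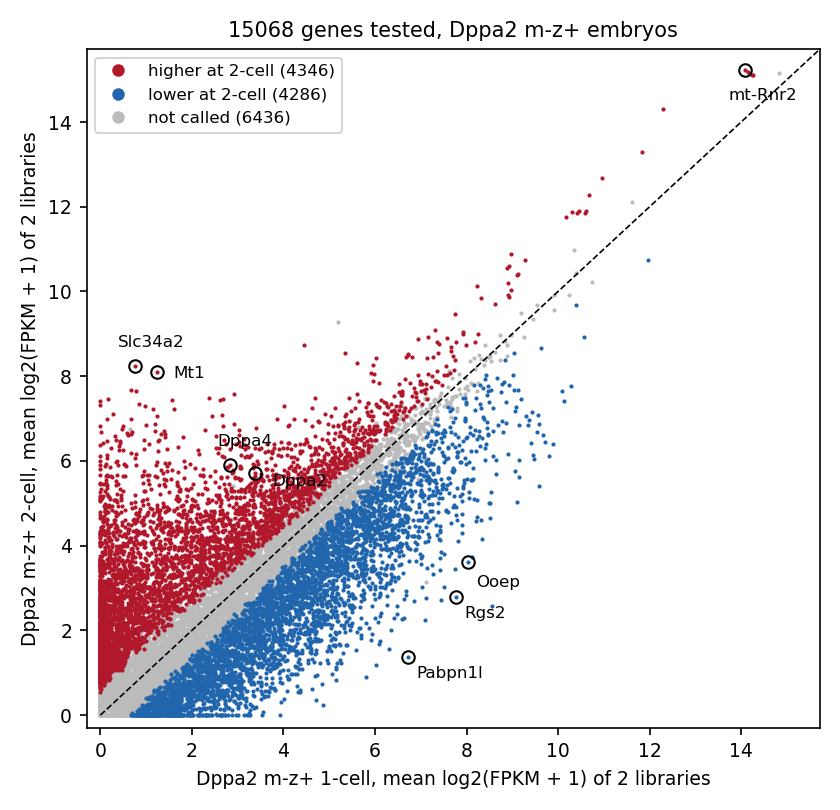
Mean log2(FPKM + 1) of 2 libraries of Dppa2 m-z+ embryos at the 2-cell stage (vertical axis) and the 1-cell stage (horizontal axis), for the 15068 genes tested, in red where higher, in blue where lower and in grey where not called. Many of the 4346 red genes lie along the left edge, where 1-cell values are near 0, and the 4286 blue genes lie below the dashed line of equal level.

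Among named genes with a mean of at least 10 FPKM at the 2-cell stage and no overlap between the 2-cell and the 1-cell libraries, the largest rises were led by Slc34a2, a sodium-dependent phosphate transporter. It stood at 316 and 287 FPKM in the 2-cell libraries, against 1.13 and 0.337 FPKM in the 1-cell libraries (log2 change 7.48, SE 0.40, adjusted p = 3.20e-08). Mt1, a metallothionein that binds zinc and other metals, stood at 378 and 196 FPKM at the 2-cell stage, against 2.93 and 0.402 FPKM at the 1-cell stage (log2 change 6.86, SE 0.51, adjusted p = 2.95e-07). Btbd18, which in mouse testis promotes transcription of piRNA precursors, stood at 117 and 159.6 FPKM at the 2-cell stage, against 0.279 and 0.149 FPKM at the 1-cell stage (log2 change 6.83, SE 0.43, adjusted p = 1.01e-07). In these 3 genes every 2-cell library was above 100 FPKM and every 1-cell library below 3 FPKM. The protein kinase Hipk1 followed with 138 and 187 FPKM, against 0.867 and 0.716 FPKM. The thiamine transporter Slc19a3 had 112 and 142 FPKM, against 0.481 and 0.720 FPKM. The ETS-family transcription factor Gabpa had 146 and 164 FPKM at the 2-cell stage, against 0.867 and 1.06 FPKM at the 1-cell stage. These were joined by the zinc finger gene Zscan5b with 105 and 121 against 0.215 and 0.646 FPKM. Vimp, the selenoprotein of endoplasmic reticulum protein disposal also called Selenos, had 80.1 and 114 against 0 and 0.553 FPKM, and the homeobox gene Crxos had 82.3 and 86.7 against 0 and 0.0907 FPKM. D13Ertd608e stood at 88.9 and 76.3 FPKM at the 2-cell stage and was listed at 0 in both 1-cell libraries. The log2 changes of the 6 genes before it lay between 6.27 and 6.50. All 10 also rose in m+z+ embryos, where Slc34a2 was at 263 and 234 FPKM at the 2-cell stage, against 0.263 and 0.257 FPKM earlier, and Btbd18 at 134 and 121 FPKM, against 0.254 and 0.457 FPKM.

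The promoters of Slc34a2, Mt1, Pabpn1l and Rgs2 are printed because these genes head the rises and the falls. They run from 250 bases before to 50 bases after the RefSeq start of each gene in GRCm38.p6, at chr5:53049103-53049402 (forward strand), chr8:94178839-94179138 (forward strand), chr8:122622686-122622985 (reverse strand) and chr1:144004100-144004399 (reverse strand). Capitals mark matches, on either strand, to CCAAT (the core of the NF-Y box) and to the core of the metal-response element, TGCNCNC with A or G at the first N, which the zinc-sensing factor MTF1 is known to bind in metallothionein promoters.
Slc34a2: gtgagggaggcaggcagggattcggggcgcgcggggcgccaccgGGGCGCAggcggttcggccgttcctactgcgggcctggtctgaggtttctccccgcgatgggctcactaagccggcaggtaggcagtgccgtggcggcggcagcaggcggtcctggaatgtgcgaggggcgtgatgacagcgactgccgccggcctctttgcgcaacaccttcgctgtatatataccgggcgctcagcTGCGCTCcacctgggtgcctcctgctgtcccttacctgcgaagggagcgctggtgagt
Mt1: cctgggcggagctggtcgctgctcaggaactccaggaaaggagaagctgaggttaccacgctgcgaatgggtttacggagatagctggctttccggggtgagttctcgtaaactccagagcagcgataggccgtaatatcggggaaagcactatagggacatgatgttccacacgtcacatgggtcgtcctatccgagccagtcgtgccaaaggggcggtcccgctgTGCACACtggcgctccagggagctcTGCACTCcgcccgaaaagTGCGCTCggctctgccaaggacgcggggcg
Pabpn1l: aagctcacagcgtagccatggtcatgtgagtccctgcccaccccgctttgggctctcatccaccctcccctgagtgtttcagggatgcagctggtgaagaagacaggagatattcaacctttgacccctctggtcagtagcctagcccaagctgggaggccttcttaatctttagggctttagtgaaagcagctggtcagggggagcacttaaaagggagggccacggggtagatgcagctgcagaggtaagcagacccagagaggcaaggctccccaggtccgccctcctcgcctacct
Rgs2: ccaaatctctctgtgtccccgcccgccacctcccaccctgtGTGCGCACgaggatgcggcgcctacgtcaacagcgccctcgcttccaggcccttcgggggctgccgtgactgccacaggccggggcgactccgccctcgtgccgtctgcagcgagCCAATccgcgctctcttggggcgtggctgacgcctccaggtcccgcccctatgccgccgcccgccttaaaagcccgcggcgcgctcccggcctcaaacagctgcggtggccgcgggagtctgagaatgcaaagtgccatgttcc
The Mt1 promoter held 3 matches to the metal-response core, Slc34a2 held 2, Rgs2 held 2 that overlap each other beside 1 CCAAT, and Pabpn1l held none of either. These letters are common: the metal-response core was in 36.0% of the 2781 promoters matched to genes that rose, in 35.4% of the 3017 matched to genes that fell, in 35.9% of the 9724 matched to any gene tested and in 25.6% of all 27025 promoters of the table. The shares among genes that rose or fell were thus near that of all genes tested. Among the 10 largest rises the core was in 2 of the 7 promoters matched, and among the 10 largest falls in 5 of 9. CCAAT was in 41.3% of the promoters of genes that rose, 39.9% of those of genes that fell, 40.0% of those of all genes tested and 37.9% of all promoters. The median count of CpG dinucleotides was 22 in promoters of genes that rose and 19 in those of genes that fell, against 7 in all promoters and 21 in promoters of all tested genes. Pabpn1l held 5 and Rgs2 held 33. The matches are a description of the letters and were not tied to the values.

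Under the same rule for the 1-cell stage, the largest falls were of transcripts well above 10 FPKM in both 1-cell libraries. Pabpn1l, a poly(A)-binding protein of oocytes that helps remove maternal messages, was at 2.02 and 1.21 FPKM in the 2-cell libraries, against 95.9 and 114 FPKM in the 1-cell libraries (log2 change -5.35, SE 0.29, adjusted p = 3.20e-08). Rgs2, a regulator of G protein signalling, stood at 4.27 and 8.02 FPKM at the 2-cell stage, against 220.0 and 213 FPKM at the 1-cell stage (log2 change -4.98, SE 0.33, adjusted p = 1.40e-07). Ooep, a component of the subcortical maternal complex, stood at 7.55 and 16.7 FPKM at the 2-cell stage, against 259.6 and 259.6 FPKM at the 1-cell stage (log2 change -4.40, SE 0.31, adjusted p = 2.02e-07). That no 2-cell library of these genes reached a 1-cell one was part of the rule that chose them. Oas1h, of the oligoadenylate synthetase family, had 2.76 and 5.04 FPKM, against 132 and 140.2 FPKM. Tdrd12, a Tudor protein of the piRNA pathway, had 1.76 and 2.19 FPKM, against 75.1 and 80.2 FPKM. Aven, an inhibitor of apoptosis, had 4.76 and 10.4 FPKM, against 194 and 170.1 FPKM. Elp3, the acetyltransferase subunit of Elongator, had 1.65 and 2.93 FPKM, against 69.9 and 64.2 FPKM. The list was completed by the thiol reductase Glrx with 2.60 and 2.14 against 62.4 and 75.1 FPKM and by 2 genes of mitochondrial proteins. Of these, Ndufa8, a subunit of respiratory complex I, had 0.397 and 0 against 27.8 and 28.5 FPKM, and Fam162a had 0 and 4.19 against 62.7 and 64.7 FPKM. Log2 changes of these 10 genes lay between -5.35 and -4.37.

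**Figure D3:**
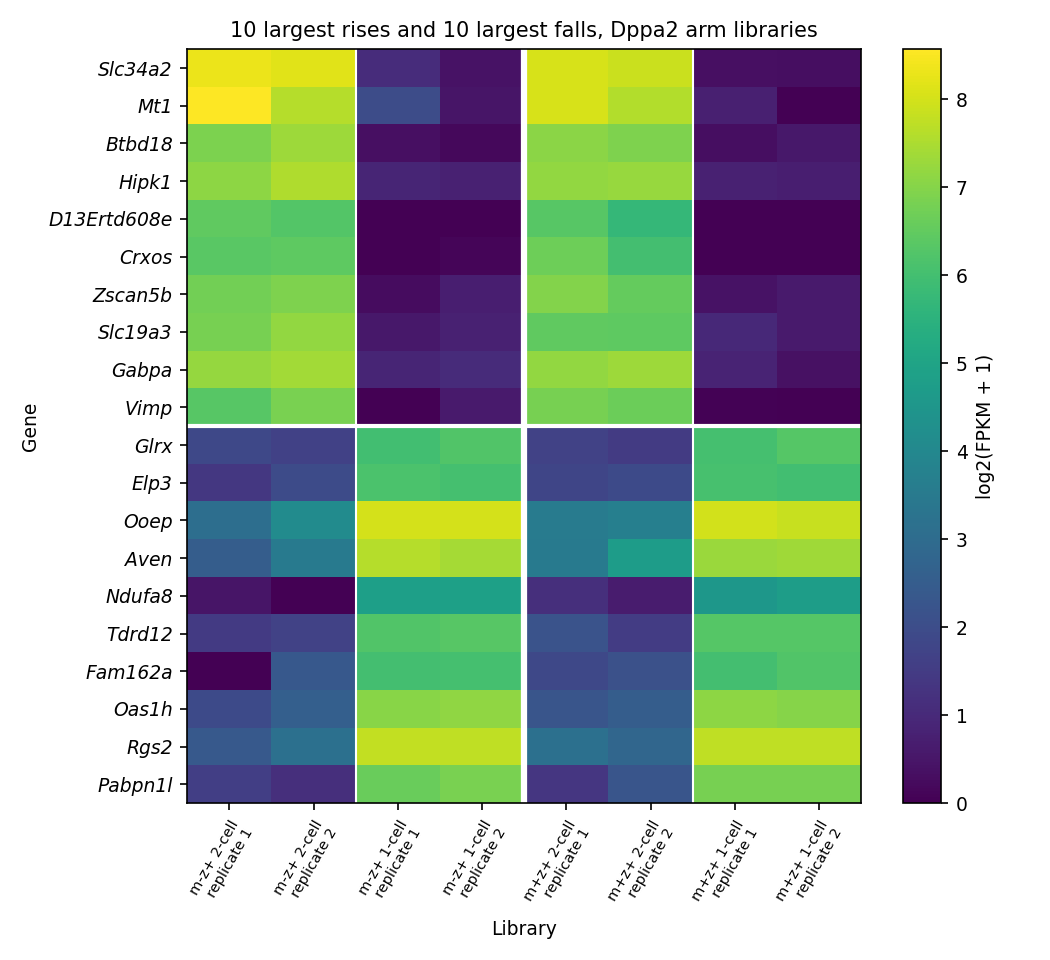
log2(FPKM + 1) of the 10 largest rises (top) and 10 largest falls (bottom) in each library of the Dppa2 arm, m-z+ libraries on the left of the thick line and m+z+ libraries on the right, 2-cell before 1-cell. Slc34a2 is at 316 and 287 FPKM and Pabpn1l at 2.02 and 1.21 FPKM in the m-z+ 2-cell libraries, and the m+z+ libraries show the same split between stages.

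Some transcripts were near or at 0 at 1 of the stages. Beside D13Ertd608e and Crxos, the highest 2-cell values among genes under 0.1 FPKM in both 1-cell libraries belonged to Cd63, Exoc3l2 and Folr1. Cd63, a tetraspanin of endosomes, had 85.8 and 54.1 FPKM at the 2-cell stage, the exocyst-like gene Exoc3l2 had 56.8 and 61.0 FPKM and the folate receptor gene Folr1 had 46.2 and 65.5 FPKM, and all 3 were listed at 0 in both 1-cell libraries (adjusted p from 9.90e-08 to 1.33e-06). In the other direction, Mtif3, a mitochondrial translation initiation factor, had 14.9 and 13.4 FPKM at the 1-cell stage and was listed at 0 in both 2-cell libraries. Spata24 had 11.6 and 9.63 FPKM and the gluconeogenic enzyme Fbp2 had 8.60 and 8.46 FPKM at the 1-cell stage, both with 0 in the 2-cell libraries. Rgsl1 had 0.0954 and 0 FPKM at the 2-cell stage, against 10.1 and 11.48 FPKM, and the calcium pump Atp2c2 had 0 and 0.0566 FPKM, against 7.32 and 9.85 FPKM at the 1-cell stage. A value of 0 in these files may be a level below what the library could show.

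Genes typical of the 2-cell embryo rose in most cases in the m-z+ embryos. Of 50 tested, 43 rose and 3 fell, with a median log2 change of 3.13. Their median level was 4.56 and 4.57 on the log2(FPKM + 1) scale in the 2-cell libraries, against 1.03 and 0.73 in the 1-cell libraries. Tdpoz1, of a family of 2-cell genes with a speckle-type BTB domain, stood at 41.9 and 27.2 FPKM, against 0.0416 and 0.00702 FPKM (log2 change 5.09, SE 0.27, adjusted p = 2.63e-08). Zfp352, a zinc finger gene that marks 2-cell embryos, stood at 98.9 and 88.1 FPKM, against 3.43 and 1.79 FPKM (log2 change 4.75, SE 0.24, adjusted p = 2.08e-08). Both 2-cell libraries lay far above both 1-cell libraries in each. Pramel7, which in embryonic stem cells lowers DNA methylation through Uhrf1, had 51.4 and 85.2 FPKM, against 0 and 0.230 FPKM, and Ubtfl1, a preimplantation gene related to the ribosomal RNA transcription factor Ubtf, had 55.5 and 64.0 FPKM, against 0.580 and 0.292 FPKM. The Zscan4 genes, which act at telomeres, were at lower levels: Zscan4c had 9.40 and 7.68 FPKM, against 0.915 and 1.17 FPKM (log2 change 2.22, SE 0.47, adjusted p = 0.00131). Zscan4d had 16.7 and 5.39 FPKM at the 2-cell stage, against 3.54 and 3.27 FPKM at the 1-cell stage, and its adjusted p of 0.0482 did not hold under 9 of 14 other settings. Tcstv1 did not pass, with 24.0 and 28.8 FPKM at the 2-cell stage, against 14.0 and 12.2 FPKM at the 1-cell stage (adjusted p = 0.0621), and passed under 4 of 14 other settings. The 3 members that fell were Duxf3, the gene of the Dux transcription factor, with 0.351 and 0.775 FPKM, against 4.28 and 2.62 FPKM, Sp110 with 32.0 and 43.1 FPKM, against 201 and 190.4 FPKM, and the arginase Arg2 with 51.6 and 36.3 FPKM, against 127 and 114 FPKM. Members of such families are near-identical copies, and how the authors shared reads between them is not given in the sources used here, so values of single copies are uncertain.

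The Obox family of homeobox genes divided by member. Obox3, Obox6 and Obox8 rose, Obox3 to 96.1 and 81.8 FPKM at the 2-cell stage, against 0.489 and 1.5 FPKM at the 1-cell stage (log2 change 5.54, SE 0.26, adjusted p = 1.31e-08). Obox6 had 86.4 and 121 FPKM at the 2-cell stage, against 0.649 and 0.565 FPKM, and Obox8 had 73.6 and 108 FPKM, against 0.598 and 0 FPKM. The other 4 fell: Obox2 had 58.5 and 48.2 FPKM, against 498 and 568 FPKM, and Obox1 had 103 and 69.3 FPKM, against 697 and 652 FPKM at the 1-cell stage. Obox7 and Obox5 were the other 2. Both 2-cell libraries lay above both 1-cell libraries in 3 of the 7 Obox genes tested and below them in 4, where 38.6% and 37.9% of all genes did so.

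Transcription factors of genome activation and of the early lineages rose more often than they fell, in 21 and 5 of 41 cases (median log2 change 0.71). Klf5, a factor of the first lineages, stood at 72.4 and 48.2 FPKM at the 2-cell stage, against 0.736 and 0.228 FPKM at the 1-cell stage (log2 change 5.36, SE 0.31, adjusted p = 5.22e-08). Gata1, better known from red blood cell development, had 10.2 and 25 FPKM at the 2-cell stage and was listed at 0 in both 1-cell libraries, and the retinoic acid receptor Rarg had 15.7 and 20.6 FPKM, against 0.797 and 0.155 FPKM. Among those that fell were factors that the egg stores: Pou5f1 (Oct4), the pluripotency factor, had 99.7 and 70.9 FPKM at the 2-cell stage, against 164 and 149 FPKM at the 1-cell stage (log2 change -0.89, SE 0.19, adjusted p = 0.00122). Klf17 had 182 and 195 FPKM, against 339 and 358 FPKM, and Gata3 had 0.565 and 1.45 FPKM, against 5.24 and 3.5 FPKM.

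Maternal-effect and oocyte transcripts fell in 52 and rose in 3 of 67 cases, with a median log2 change of -1.90. Their median level was 5.22 and 5.08 on the log2(FPKM + 1) scale in the 2-cell libraries, against 7.29 and 7.38 in the 1-cell libraries. Besides Pabpn1l and Ooep, the RNA-binding genes Zar1l and Zar1, which hold maternal RNA in oocytes, fell: Zar1l had 15.2 and 17.1 FPKM, against 243 and 208 FPKM (log2 change -3.72, SE 0.16, adjusted p = 1.02e-08), and Zar1 had 14.2 and 13 FPKM, against 84.3 and 105 FPKM. The oocyte-secreted growth factors kept more of their RNA: Gdf9 stood at 65.7 and 81.5 FPKM, against 189.8 and 264 FPKM (log2 change -1.60), and Bmp15 at 199 and 211 FPKM, against 529.7 and 594 FPKM (log2 change -1.45). Both had fallen in each 2-cell library relative to each 1-cell library. Zp3, of the zona pellucida around the egg, did not pass, with 18.7 and 16.9 FPKM at the 2-cell stage, against 23.3 and 23.3 FPKM at the 1-cell stage (adjusted p = 0.0709). The 3 members that rose were Omt2a with 513 and 449 FPKM, against 190.4 and 187 FPKM, its relative Omt2b with 405 and 294 FPKM, against 145 and 135 FPKM, and Tcl1b3 with 124 and 126 FPKM, against 85.1 and 75.1 FPKM. The call of Tcl1b3 was lost under 9 of 14 other settings.

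Genes of deadenylation and mRNA decay, which remove maternal RNA, moved both ways. Of 61 tested, 22 rose (36.1%) and 16 fell (26.2%), against 28.8% and 28.4% of all genes. With TPM scaling 19 rose and 23 fell, and the median log2 change of 0.10 turned to -0.17. Pabpc1, the general cytoplasmic poly(A)-binding protein, stood at 152 and 197 FPKM at the 2-cell stage, against 5.43 and 4.87 FPKM at the 1-cell stage (log2 change 4.82, SE 0.36, adjusted p = 3.26e-07). Pabpn1l, a different poly(A)-binding protein described above, fell. Dis3, a nuclease of the exosome, had 40.2 and 36.6 FPKM, against 6.10 and 6.46 FPKM, and the terminal uridylyl transferase Zcchc11 had 6.56 and 11.4 FPKM, against 0.207 and 0.776 FPKM. Among those that fell were subunits of the CCR4-NOT deadenylase, Cnot3 with 45.1 and 38.4 FPKM, against 245 and 240.5 FPKM (log2 change -2.52, SE 0.17, adjusted p = 1.60e-07), and Cnot11 with 5.57 and 5.89 FPKM, against 30.0 and 27.6 FPKM. The oocyte translation repressor Patl2 had 0.400 and 0.319 FPKM at the 2-cell stage, against 5.21 and 5.21 FPKM at the 1-cell stage.

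Genes of the transcription machinery were counted by polymerase. For RNA polymerase II, its general factors and Mediator, 21 of 67 genes rose and 21 fell, or 31.3% in each direction, near the 28.8% and 28.4% of all genes. The median log2 change of 0.02 turned to -0.23 with TPM scaling. In that scaling 17 rose and 27 fell, and 24 and 15 did with median-ratio scaling, which sets the median ratio of genes to a common profile equal in all libraries. The count that fell was 13 without m-z+ 1-cell replicate 2 and 12 without 2-cell replicate 1. The shared subunit Polr2h had 20.9 and 21.4 FPKM at the 2-cell stage, against 1.44 and 1.77 FPKM at the 1-cell stage (log2 change 3.09, SE 0.26, adjusted p = 9.77e-07). Cdk9, the kinase that releases paused polymerase, had 45.6 and 43.4 FPKM, against 4.59 and 4.79 FPKM, and Polr2m had 24.4 and 24.0 FPKM, against 2.95 and 3.55 FPKM. The Mediator subunit Med17 had 5.04 and 9.65 FPKM at the 2-cell stage, against 70.4 and 77.8 FPKM at the 1-cell stage (log2 change -3.23, SE 0.25, adjusted p = 4.08e-07). Med8 had 8.86 and 9.69 FPKM, against 62.2 and 48.9 FPKM, and the initiation factor Gtf2b had 42.2 and 27.3 FPKM, against 170.3 and 180.3 FPKM. For RNA polymerases I and III, which make ribosomal and transfer RNA, 21 of 37 genes rose and 5 fell (median log2 change 1.01). Gtf3c5, of the transfer RNA gene factor TFIIIC, had 43.8 and 46.4 FPKM at the 2-cell stage, against 0.257 and 0.260 FPKM at the 1-cell stage (log2 change 5.19, SE 0.29, adjusted p = 4.33e-08). Ubtf, which opens ribosomal RNA genes, had 52.8 and 67.1 FPKM, against 3.19 and 2.55 FPKM (log2 change 3.97, SE 0.24, adjusted p = 7.61e-08). The subunits Taf1a and Taf1b of the polymerase I factor SL1 fell, Taf1a with 51.9 and 54.4 FPKM, against 206 and 204 FPKM, and Taf1b with 7.95 and 9.67 FPKM, against 34.7 and 36.8 FPKM. Polr3gl, a polymerase III subunit, had 0.273 and 0.697 FPKM, against 2.71 and 3.54 FPKM, and lost its call under 2 of 14 other settings.

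Genes for making ribosomes rose more often than they fell. Of 81 cytoplasmic ribosomal protein genes, 48 rose and 11 fell (median log2 change 1.15). Rpsa had 74.6 and 74.8 FPKM at the 2-cell stage, against 1.43 and 1.38 FPKM at the 1-cell stage (log2 change 4.98, SE 0.49, adjusted p = 2.74e-06). Rplp1, of the ribosomal stalk, had 428 and 416 FPKM, against 22.6 and 19.4 FPKM. Among those that fell were Rpl17 with 25 and 18.7 FPKM, against 72.5 and 77.0 FPKM, Rpl36 with 21 and 31.1 FPKM, against 63.9 and 53.9 FPKM, and the X-linked Rps4x with 42.8 and 50.3 FPKM, against 96.3 and 87.4 FPKM. The count that fell was 5 without m-z+ 2-cell replicate 1 and 6 when either 1-cell replicate was left out. Ribosomal protein genes have many processed pseudogenes, between which reads may have been split. Of 81 genes of nucleolar ribosome assembly, 34 rose and 13 fell (median log2 change 0.51). Nop16 had 28.8 and 38.9 FPKM at the 2-cell stage, against 0.215 and 0.0872 FPKM at the 1-cell stage (log2 change 4.91, SE 0.36, adjusted p = 2.81e-07), Nol11 had 60.7 and 54.8 FPKM, against 1.34 and 2.26 FPKM, and Rrs1 had 42.7 and 36.6 FPKM, against 0.933 and 1.42 FPKM. The GTPase Bms1 and the kinase Riok1, both of the small subunit, fell steeply: Bms1 had 19.5 and 30.2 FPKM, against 383 and 351 FPKM (log2 change -3.86, SE 0.17, adjusted p = 1.02e-08), and Riok1 had 37.3 and 37.1 FPKM, against 381 and 361 FPKM. With TPM scaling 30 of these 81 genes rose and 21 fell.

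Translation factors moved both ways, and aminoacyl-tRNA synthetase genes fell more often than they rose. Of 55 translation factors 16 rose (29.1%) and 19 fell (34.5%), against 28.8% and 28.4% of all genes. The median log2 change of -0.10 turned to 0.02 with median-ratio scaling, where 18 rose and 16 fell, and to 0.16 without 2-cell replicate 1. With TPM scaling 12 rose and 22 fell. Eif1a had 11.3 and 11.7 FPKM at the 2-cell stage, against 0.409 and 0.866 FPKM at the 1-cell stage (log2 change 2.95, SE 0.25, adjusted p = 9.68e-07), and Eif4ebp1, the repressor of cap binding, had 12.4 and 6.29 FPKM, against 0 and 0.580 FPKM. Eif1b, the close relative of the start-codon factor Eif1, had 11.7 and 37.9 FPKM, against 238 and 238 FPKM (log2 change -3.42, SE 0.43, adjusted p = 2.15e-05), and the release factor Gspt2 had 7.44 and 5.82 FPKM, against 103 and 99.3 FPKM. Of 23 genes of aminoacyl-tRNA synthetases and their scaffold, which charge transfer RNA, 5 rose and 13 fell (median log2 change -0.77). Lars had 0.551 and 0.730 FPKM at the 2-cell stage, against 9.77 and 10.9 FPKM at the 1-cell stage (log2 change -2.79, SE 0.28, adjusted p = 3.34e-06), and Sars had 8.41 and 12.0 FPKM, against 76.8 and 71.7 FPKM. Yars went the other way, with 4.90 and 9.12 FPKM, against 0 and 0.482 FPKM. The count that rose was 3 with TPM scaling and without m-z+ 1-cell replicate 2 or 2-cell replicate 2.

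RNA of the mitochondrial genome and of the nuclear genes for the same respiratory complexes moved apart. All 13 mitochondrially encoded protein genes tested rose, with log2 changes from 1.07 for mt-Nd6 to 1.91 for mt-Nd3. The complex I gene mt-Nd1 stood at 8331 and 5227 FPKM at the 2-cell stage, against 2075 and 1906 FPKM at the 1-cell stage (log2 change 1.73, SE 0.24, adjusted p = 5.55e-05). The ribosomal RNA mt-Rnr2 stood at 38611 and 37615 FPKM, against 18969 and 16136 FPKM (log2 change 1.12, SE 0.13, adjusted p = 1.08e-05). Of 22 mitochondrial transfer RNA models, 21 rose. Of 77 nuclear genes of the respiratory chain, 13 rose and 34 fell (median log2 change -0.77). Beside Ndufa8, the complex I gene Ndufa5 had 0 and 1.1 FPKM at the 2-cell stage, against 25.5 and 14.9 FPKM at the 1-cell stage (log2 change -3.82, SE 0.52, adjusted p = 4.09e-05). Sdhd, of complex II, had 1.58 and 2.84 FPKM, against 33.2 and 40.1 FPKM. ATP synthase genes were among those that rose, Atp5g1 with 32.5 and 40.3 FPKM, against 2.40 and 4.57 FPKM (log2 change 3.09, SE 0.26, adjusted p = 9.33e-07), and Atp5o with 15.8 and 18.9 FPKM, against 5.80 and 3.6 FPKM.

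Genes of glycolysis and pyruvate metabolism moved both ways, the lactate dehydrogenase genes in opposite directions. Of 38 genes 17 rose and 14 fell (median log2 change 0.52). Ldha, the lactate dehydrogenase subunit of glycolytic tissues, had 11.8 and 13.9 FPKM at the 2-cell stage, against 0.134 and 0.319 FPKM at the 1-cell stage (log2 change 3.5, SE 0.40, adjusted p = 9.27e-06). Ldhb, the subunit stored in eggs, had 82.9 and 89.8 FPKM, against 816 and 856 FPKM (log2 change -3.26, SE 0.24, adjusted p = 2.95e-07). Ldhb thus remained above Ldha in every 2-cell library in FPKM, which is scaled to transcript length. Pdp2, the phosphatase that activates pyruvate dehydrogenase, had 53.3 and 72.5 FPKM, against 1.55 and 1.17 FPKM. Within the pyruvate dehydrogenase complex Dld had 8.29 and 13.8 FPKM, against 77.9 and 84.9 FPKM, and Pdhx had 17.3 and 11.7 FPKM, against 81.7 and 76.6 FPKM.

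Proteasome genes fell in 24 and rose in 8 of 45 cases (median log2 change -1.16). Psma7, of the core particle, had 9.21 and 10.7 FPKM at the 2-cell stage, against 204 and 224 FPKM at the 1-cell stage (log2 change -4.30, SE 0.19, adjusted p = 1.02e-08), and Psmc5, an ATPase of the cap, had 6.4 and 11.6 FPKM, against 98.3 and 81.2 FPKM. Both subunits of the PA28 activator rose: Psme1 had 6 and 3.5 FPKM and was listed at 0 in both 1-cell libraries, and its partner Psme2 had 14.4 and 11.9 FPKM, against 0 and 0.309 FPKM (log2 change 3.62, SE 0.64, adjusted p = 0.000337). Heat shock and chaperonin genes fell in 19 and rose in 9 of 47 cases, or in 25 and 6 with TPM scaling (median log2 change -0.34). The prefoldin subunit Pfdn1 had 5.13 and 7.22 FPKM, against 103 and 100.6 FPKM (log2 change -3.86, SE 0.27, adjusted p = 1.83e-07), while the stress-induced Bag3 had 24.2 and 26.2 FPKM, against 0.419 and 0.127 FPKM (log2 change 4.37, SE 0.24, adjusted p = 4.08e-08), and the small heat shock gene Hspb1 had 33.7 and 28.0 FPKM, against 1.64 and 0.620 FPKM. Genes of the spliceosome fell in 28 and rose in 22 of 76 cases (median log2 change -0.26), but in 24 and 25 with median-ratio scaling and in 24 and 24 without 2-cell replicate 1. With all libraries 36.8% of the spliceosome genes fell and 28.9% rose, against 28.4% and 28.8% of all genes. Lsm3, of the U6 ring, had 8.02 and 14.8 FPKM at the 2-cell stage, against 129.7 and 126 FPKM at the 1-cell stage (log2 change -3.43, SE 0.24, adjusted p = 2.20e-07), and Prpf6 had 9.80 and 13.4 FPKM, against 105 and 108 FPKM. Snrpc, of the U1 particle, had 157 and 199.8 FPKM, against 22.8 and 26.8 FPKM (log2 change 2.79, SE 0.18, adjusted p = 1.34e-07).

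Several DNA methylation genes fell. Dnmt1, the maintenance methyltransferase, had 19.9 and 32.4 FPKM at the 2-cell stage, against 206 and 229 FPKM at the 1-cell stage (log2 change -3.04, SE 0.22, adjusted p = 2.35e-07). Uhrf1, which brings Dnmt1 to replicated DNA, had 23.6 and 36.2 FPKM, against 202 and 235 FPKM (log2 change -2.85, SE 0.28, adjusted p = 3.25e-06), and the de novo enzyme Dnmt3a had 6.94 and 11.7 FPKM, against 77.9 and 33.1 FPKM. Tet1, which oxidises methylated cytosine, rose, with 8.43 and 8.09 FPKM, against 0.379 and 1.32 FPKM (log2 change 2.37, SE 0.28, adjusted p = 1.24e-05), as did Gadd45a, Gadd45b, Trim28 and Uhrf2. Of the 21 genes tested 5 rose and 9 fell, and the median log2 change of -0.10 turned to 0.01 with median-ratio scaling. Of 72 genes of histone modification and chromatin remodelling, 31 rose and 21 fell (median log2 change 0.35), but 22 rose and 26 fell with TPM scaling. The H3K4 demethylase Kdm5b had 92.5 and 103 FPKM at the 2-cell stage, against 1.92 and 1.16 FPKM at the 1-cell stage (log2 change 5.30, SE 0.30, adjusted p = 5.22e-08). Suv39h1, which methylates H3K9, had 19.5 and 25.6 FPKM, against 0.335 and 0.425 FPKM, while Setdb1, another H3K9 methyltransferase, had 17.3 and 17.4 FPKM, against 89.4 and 89.4 FPKM. The acetyltransferase Kat8 had 2.24 and 2.63 FPKM, against 32.6 and 31.5 FPKM (log2 change -3.27, SE 0.24, adjusted p = 2.79e-07).

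Most replication-dependent histone genes rose, and more genes of histone chaperones and variants fell than rose. Among 63 replication-dependent histone genes, whose RNA lacks a poly(A) tail, 45 rose and 4 fell (median log2 change 1.67), and 1 or 2 fell when either 1-cell replicate or 2-cell replicate 2 was left out. These genes too are near-identical copies. Hist1h2an had 151 and 72.2 FPKM at the 2-cell stage, against 4.79 and 3.11 FPKM at the 1-cell stage (log2 change 4.43, SE 0.40, adjusted p = 1.35e-06). Hist1h3i had 20.9 and 36.8 FPKM, against 0.574 and 0.334 FPKM, and Hist1h2ai had 121 and 20.1 FPKM, against 0.861 and 0.940 FPKM. The 2-cell libraries were far apart in Hist1h2ai and both lay above the 1-cell libraries. Hist1h2aa fell, with 165 and 93.2 FPKM, against 235 and 265 FPKM (adjusted p = 0.0057), and lost its call without 2-cell replicate 2. The calls of the linker histones Hist1h1d and Hist1h1e, also lower at the 2-cell stage, were lost under 7 and 9 of 14 other settings. Of 37 histone chaperones and variants, 7 rose and 15 fell (median log2 change -0.26). Npm2, which remodels sperm chromatin, had 53.9 and 77.7 FPKM, against 766 and 650.2 FPKM (log2 change -3.43, SE 0.27, adjusted p = 5.44e-07), and the oocyte linker histone H1foo had 28.0 and 27.0 FPKM, against 170.3 and 203 FPKM. H2afz, the gene of the variant H2A.Z, rose, with 59.8 and 41.9 FPKM, against 5.51 and 2.47 FPKM (log2 change 3.43, SE 0.38, adjusted p = 7.19e-06).

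Cell cycle genes moved both ways, with 21 rising and 25 falling of 63 (median log2 change -0.19), or 24 and 23 with median-ratio scaling. Without that scaling the shares were 33.3% and 39.7%, against 28.8% and 28.4% of all genes. Ccne1, the cyclin of S phase entry, had 186 and 172 FPKM at the 2-cell stage, against 3.80 and 4.56 FPKM at the 1-cell stage (log2 change 5.12, SE 0.34, adjusted p = 1.28e-07). The mitotic phosphatase Cdc25c had 23.6 and 32.0 FPKM, against 2.92 and 2.21 FPKM (log2 change 3.01, SE 0.33, adjusted p = 6.72e-06). Ccno had 14.5 and 22.6 FPKM, against 157 and 171 FPKM (log2 change -3.11, SE 0.21, adjusted p = 1.39e-07), the meiotic cyclin Ccnb3 had 3.99 and 4.21 FPKM, against 25.8 and 28.5 FPKM, and the meiotic kinase Aurkc had 8.49 and 12.6 FPKM, against 51.2 and 55.8 FPKM. Of 26 genes of the p53 response, 14 rose and 5 fell (median log2 change 0.71), with 3 falling when either 1-cell replicate was left out and 11 rising and 7 falling with TPM scaling. Sesn2, which restrains growth signalling under stress, had 70.0 and 74.0 FPKM at the 2-cell stage, against 0.659 and 0.503 FPKM at the 1-cell stage (log2 change 5.53, SE 0.25, adjusted p = 1.18e-08). The members that fell were Bax, Polk, Trp73 and 2 genes of nucleotide excision repair, Ercc5 with 1.00 and 1.43 FPKM, against 8.73 and 11.2 FPKM, and Xpc with 3.44 and 3.39 FPKM, against 12.5 and 13 FPKM. Of 31 genes of the integrated stress response, 12 rose and 6 fell, against 11 and 9 with TPM scaling, which turned the median log2 change of 0.08 to -0.17. Its targets moved both ways: Trib3 had 16.5 and 23.1 FPKM, against 0.274 and 0 FPKM (log2 change 4.19, SE 0.40, adjusted p = 2.13e-06), and the serine synthesis gene Psat1 had 34.4 and 28.3 FPKM, against 1.13 and 0.182 FPKM, while Ddit3 (Chop) had 22.1 and 18.6 FPKM, against 69.3 and 68.3 FPKM (log2 change -1.71, SE 0.17, adjusted p = 2.49e-06).

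Imprinted genes rose in 15 and fell in 5 of 35 cases (median log2 change 0.35). Phlda2, a regulator of placental growth, had 30.2 and 29.9 FPKM at the 2-cell stage, against 0.247 and 3.49 FPKM at the 1-cell stage (log2 change 3.71, SE 0.43, adjusted p = 1.10e-05), and Zrsr1 had 11.49 and 15.3 FPKM, against 1.04 and 0.542 FPKM. H13 had 19.07 and 17.8 FPKM, against 78.6 and 77.2 FPKM (log2 change -2.02, SE 0.22, adjusted p = 7.68e-06), and Mest had 16.9 and 27.5 FPKM, against 51.9 and 53.9 FPKM. Germline genes rose in 12 (25%) and fell in 18 (37.5%) of 48 cases, against 28.8% and 28.4% of all genes. Their median log2 change of 0.10 turned to -0.16 with TPM scaling. Sycp1, of the synaptonemal complex, had 65.9 and 113 FPKM, against 8.20 and 6.25 FPKM (log2 change 3.42, SE 0.27, adjusted p = 4.44e-07), and Rpl10l, a ribosomal protein gene of the male germ line, had 103 and 74.5 FPKM, against 1.42 and 1.40 FPKM. The piRNA pathway genes Asz1 and Tdrd1 fell, Asz1 with 5.19 and 7.23 FPKM, against 53.1 and 52.1 FPKM (log2 change -2.91, SE 0.22, adjusted p = 3.76e-07), and Tdrd1 with 21.3 and 17.9 FPKM, against 92.8 and 87.4 FPKM.

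Of 25 nuclear and structural noncoding RNAs 11 rose and none fell (median log2 change 0.73), though 3 fell without 2-cell replicate 2. The snoRNA host genes Snhg3, Snhg8 and Snhg5 had the highest log2 changes of this list, Snhg8 with 13.7 and 19.5 FPKM at the 2-cell stage, against 1.73 and 0.332 FPKM at the 1-cell stage (log2 change 3.18, SE 0.35, adjusted p = 8.27e-06). The signal recognition particle RNAs Rn7s1 and Rn7s2 were among the most abundant transcripts, Rn7s1 with 25816 and 48259 FPKM, against 20158 and 18548 FPKM, and their calls were lost under 3 of 14 other settings. The 5 transcripts highest in FPKM were the same at both stages, these 2 with mt-Rnr2, mt-Rnr1 and the noncoding model Gm23935. mt-Rnr1, the small mitochondrial ribosomal RNA, had 32245 and 43004 FPKM, against 19435 and 17106 FPKM (adjusted p = 0.000267), and Gm23935, which did not pass, had 20379 and 65498 FPKM, against 31538 and 26577 FPKM (adjusted p = 0.519). Genes of adhesion, junctions and cortex rose in 16 and fell in 9 of 47 cases (median log2 change 0.33), with 14 rising and 15 falling under TPM scaling. The epithelial adhesion gene Epcam had 38.7 and 62.4 FPKM at the 2-cell stage, against 0.391 and 0 FPKM at the 1-cell stage (log2 change 5.41, SE 0.32, adjusted p = 6.40e-08), and Gja1, the connexin of gap junctions, had 11.1 and 9.96 FPKM, against 0 and 0.0984 FPKM. The tubulin genes Tubb2b and Tubb4b fell, Tubb4b with 172 and 180.0 FPKM, against 600.2 and 564 FPKM (log2 change -1.72, SE 0.16, adjusted p = 2.29e-06). Of 7 tested genes around the Dppa2 and Dppa4 locus, Dppa2, Dppa4 and Morc1 rose and Pvrl3, Myh15 and C330027C09Rik fell. Pvrl3, a nectin, had 22.6 and 18.2 FPKM, against 56.9 and 72.8 FPKM (log2 change -1.62, SE 0.20, adjusted p = 2.10e-05). Morc1, of germline silencing, had 53.9 and 67.5 FPKM, against 31.4 and 27.8 FPKM (adjusted p = 0.0138), and lost its call without 1-cell replicate 2 or 2-cell replicate 2.

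**Figure D4:**
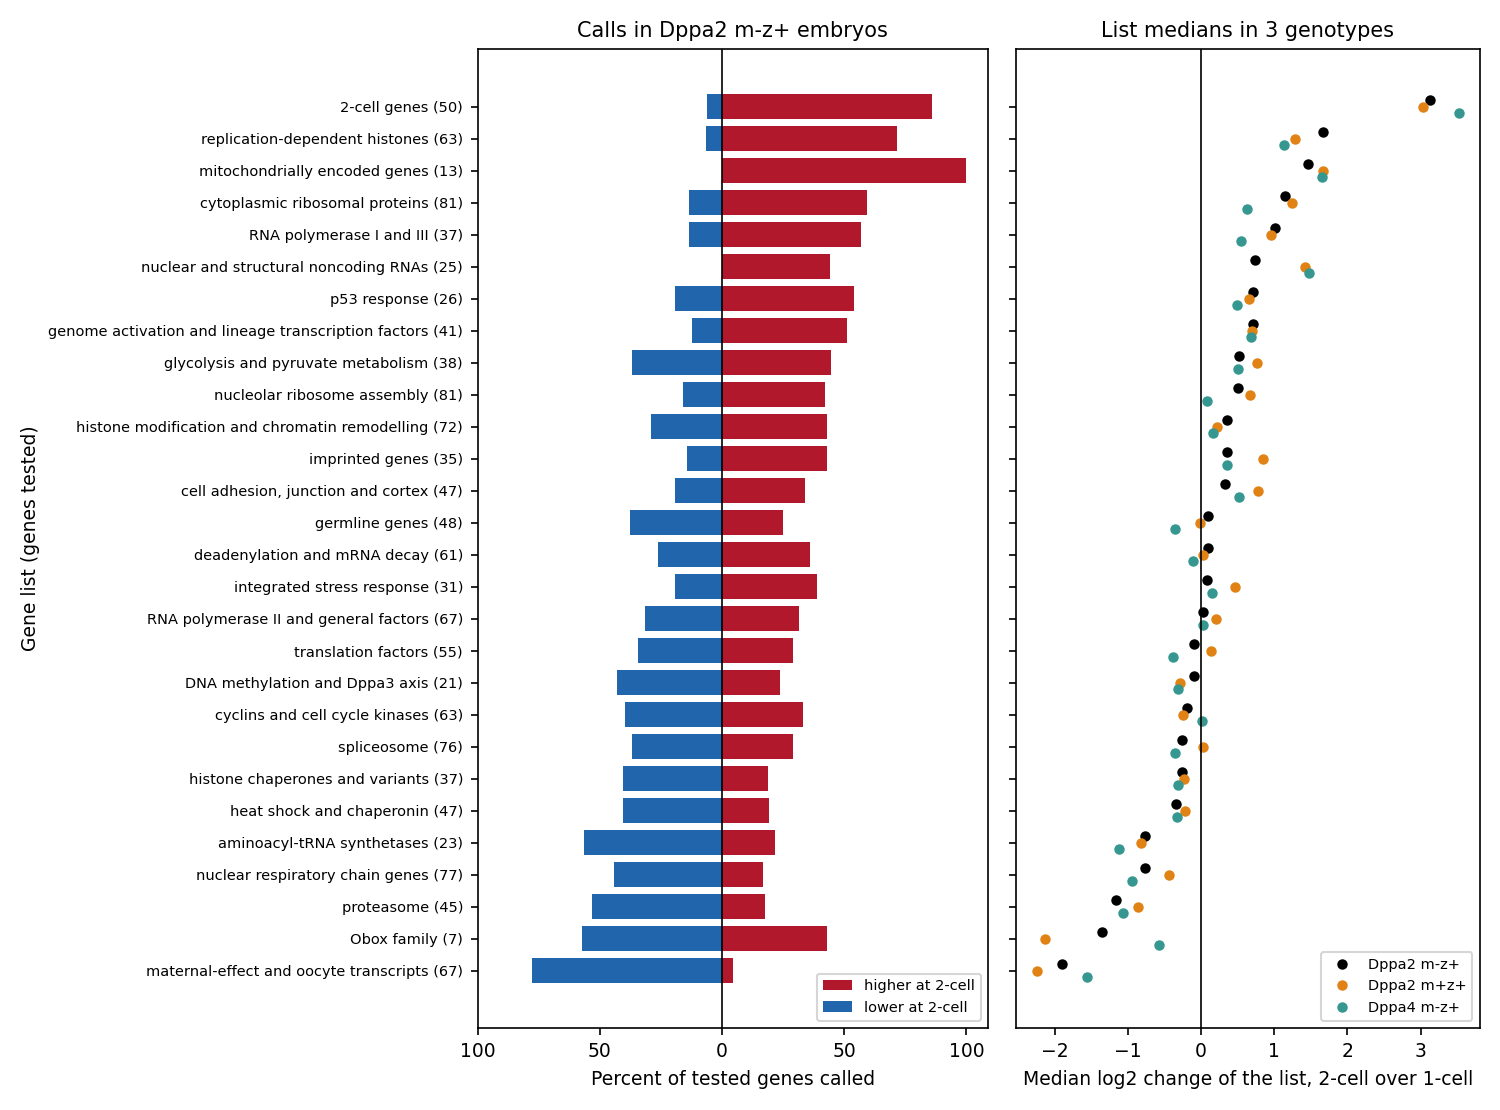
Left, percent of the tested genes of each list called higher (red) or lower (blue) at the 2-cell stage in Dppa2 m-z+ embryos, where 28.8% and 28.4% of all genes were called. Right, the median log2 change of each list in Dppa2 m-z+, Dppa2 m+z+ and Dppa4 m-z+ embryos, with 3.13 for 2-cell genes and -1.90 for maternal transcripts in Dppa2 m-z+; the m-z+ medians of the decay, polymerase II, translation factor, DNA methylation, stress response and germline lists, all within 0.10 of 0, change sign under TPM or median-ratio scaling and, apart from the stress response list, when 1 m-z+ library is left out.

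Markers of other cells that could have been carried along were mostly low or at 0. Of 24 cumulus and granulosa markers 6 passed the filter on low values, of 21 sperm transcripts 5 and of 16 blood and immune genes 4. Of the 6 tested cumulus and granulosa markers 2 rose and 2 fell (median log2 change 0.64). Amhr2 and Tnfaip6 rose, Amhr2 with 3.01 and 6.67 FPKM at the 2-cell stage and Tnfaip6 with 4.05 and 1.53 FPKM, both listed at 0 in the 1-cell libraries (adjusted p = 5.67e-05 and 0.00281). Cyp19a1 and Serpine2 fell. Summed FPKM of the cumulus and granulosa list was 21.9 and 28.7 in the 2-cell libraries, against 57.6 and 60.1 in the 1-cell libraries, with Serpine2 at 7.26 and 15.5 FPKM, against 49.2 and 49.0 FPKM. Of the other cumulus and granulosa markers, Ptx3 was listed at 0 in all 4 libraries, and Amh, Foxl2 and Fshr were below 0.5 FPKM in each. Tnfaip6, which rose, belongs to the same set of markers, as do Has2 and Inhba, whose values are not given here. The sperm list summed to 72.0 and 84.0 FPKM at the 2-cell stage, against 92.5 and 84.7 FPKM at the 1-cell stage, and most of each sum came from Odf2, which did not pass, with 65.5 and 76.8 FPKM at the 2-cell stage, against 80.0 and 76.5 FPKM at the 1-cell stage (adjusted p = 0.473). Of the 5 tested sperm transcripts 1 rose and 1 fell (median log2 change 0.53), with 2 falling under TPM scaling. Oaz3, an antizyme gene of the testis, rose, with 2.45 and 1.38 FPKM at the 2-cell stage, against 0.259 and 0.0968 FPKM at the 1-cell stage (log2 change 1.29, SE 0.33, adjusted p = 0.00493). Prm2, a sperm protamine, fell, with 0 and 0.582 FPKM at the 2-cell stage, against 9.75 and 6.64 FPKM at the 1-cell stage (log2 change -2.85, SE 0.40, adjusted p = 5.79e-05). Tnp2 was at 0 in all 4 libraries. Tnp1 did not pass, and its log2 change ran from 0 to 1.05 with 1 library left out. Values of the markers Prm1 and Odf1 are not given here. The blood and immune list summed to 10.6 and 6.87 FPKM at the 2-cell stage, against 0.890 and 0.887 FPKM at the 1-cell stage, and the part of these lists in the results was not tested. Of the 4 tested blood and immune genes 3 rose, Hba-a1, Hba-a2 and Cd74, and 0 fell (median log2 change 1.81). Hba-a1, a haemoglobin gene with a near-identical copy, was at 3.12 and 2.44 FPKM in the 2-cell libraries and at 0 in the 1-cell libraries. Hbb-bs and the leukocyte gene Ptprc were at 0 in all 4 libraries.

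By class of gene, the protein-coding genes divided evenly, with 3613 rising and 3781 falling of 12257. Unprocessed pseudogenes rose in 71 (56.8%) and fell in 17 (13.6%) of 125 cases, against 28.8% and 28.4% of all genes. Small nucleolar RNA models rose in 37 (15.4%) and fell in 4 (1.66%) of 241, both below the shares of all genes. Long intergenic noncoding RNAs rose in 86 (21.9%) and fell in 120 (30.6%) of 392, the latter near the share of all genes. Protein-coding genes that rose were shorter, with a median span of 18.8 kb, against 28.2 kb for those that fell and 27.0 kb for those not called. Across the 19 autosomes between 24.0% and 32.4% of genes rose and between 24.5% and 34.3% fell. Of 11 tested genes of chromosome Y, which the egg cannot supply, 8 rose and 1 fell.

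Whether loss of the maternal copy altered the transition was asked by setting m-z+ against m+z+ embryos of the same arm. No gene passed (0% of 15068 at an adjusted p under 0.05 in limma), and 1299 (8.62%) had an unadjusted p under 0.05. The smallest adjusted p was 0.0628. The genes with the smallest p were Dppa2, Lingo2, Gm27028, Mir8092 and Pdss2. Lingo2, a membrane protein gene of neurons, had 1.92 and 5.04 FPKM in 2-cell m-z+ embryos, against 1.40 and 1.13 FPKM in 1-cell m-z+ embryos, and among m+z+ embryos 1.26 and 1.83 FPKM, against 10.7 and 7.60 FPKM, at these stages (difference of log2 changes 2.88, SE 0.42, adjusted p = 0.0644). Pdss2, an enzyme of coenzyme Q synthesis, had 4.93 and 6.05 FPKM, against 15.2 and 13.6 FPKM, in m-z+ embryos, and 1.58 and 3.36 FPKM, against 32.0 and 31.4 FPKM, in m+z+ embryos (difference 2.04, SE 0.32, adjusted p = 0.0695). In both genes the 1-cell m-z+ libraries lay below the 1-cell m+z+ libraries, and the 2-cell m-z+ libraries above the 2-cell m+z+ libraries. The noncoding model Gm27028 was at 0 in all 4 m-z+ libraries and at 3.14 and 2.74 FPKM in 2-cell m+z+ embryos. A miss of the threshold does not show that the stage changes were alike: 154 genes passed when m-z+ 2-cell replicate 2 was left out and 6 when its partner was. The count was 24 on leaving out replicate 2 of the m+z+ 2-cell pair and 12 on leaving out replicate 1.

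The m-z+ and m+z+ groups share no library. The 2-cell genes rose in 43 of 50 cases in m-z+ and in 43 in m+z+ embryos, with median log2 changes of 3.13 and 3.03. Their median level was 4.56 and 4.57 in 2-cell m-z+ libraries and 4.43 and 4.21 in 2-cell m+z+ libraries, on the log2(FPKM + 1) scale. The maternal transcripts fell in 52 of 67 cases in m-z+ and in 63 in m+z+ embryos, with medians of -1.90 and -2.25. Their median level was 5.22 and 5.08 in 2-cell m-z+ libraries, above both 2-cell m+z+ libraries at 4.84 and 4.95. At the 1-cell stage it was 7.29 and 7.38 in m-z+ libraries, below both m+z+ libraries at 7.47 and 7.50. The levels of both stages thus enter the difference. In the Dppa4 arm the 2-cell m+z+ libraries were at 5.3999 and 5.94425 for this list. That pair of controls was further apart than any 2-cell libraries of the Dppa2 arm. The 2-cell Dppa4 m-z+ libraries, at 5.71 and 5.32, did not lie above both of these controls. In the Dppa2 arm the gene-by-gene difference of stage changes was above 0 for 53 of these 67 genes (79.1%), against 47.4% of all genes. Of the 67 genes, 20 (29.9%) were higher at an unadjusted p under 0.05, against 3.78% of all genes. These genes were read in the same libraries, so their counts are not independent, and a shift of whole libraries was not tested. The smallest adjusted p among them was 0.0824. Over all settings and left-out libraries between 50 and 61 differences were above 0, and the median difference stayed between 0.30 and 0.57, against 0.37 with all libraries. The highest of these was under TPM scaling, where the median difference of all genes was 0.12. The count higher at an unadjusted p under 0.05 was 12 on leaving out replicate 1 of the m-z+ 2-cell pair and 11 on leaving out replicate 1 of the m+z+ 2-cell pair. The nuclear and structural noncoding RNAs rose in 11 of 25 cases in m-z+ and in 15 in m+z+ embryos, with medians of 0.73 and 1.42. For these RNAs 7 of 25 differences (28.0%) were lower at an unadjusted p under 0.05, against 4.84% of all genes, a count that was 11 without m-z+ 2-cell replicate 2, 4 if the other library of that pair was dropped instead, and 1 if replicate 2 of the m+z+ 1-cell pair was. The median level of these RNAs was 3.38 and 4.35 in the 2-cell m-z+ libraries and 4.49 and 4.23 in the 2-cell m+z+ libraries. At the 1-cell stage it was 2.73 and 2.83 in m-z+ libraries, above both m+z+ libraries at 2.38 and 2.16. The 63 replication-dependent histone genes had medians of 1.67 in m-z+ and 1.29 in m+z+ embryos, and the 81 nucleolar genes 0.51 and 0.67. No member of these lists passed for the difference with all libraries in the fit.

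**Figure D5:**
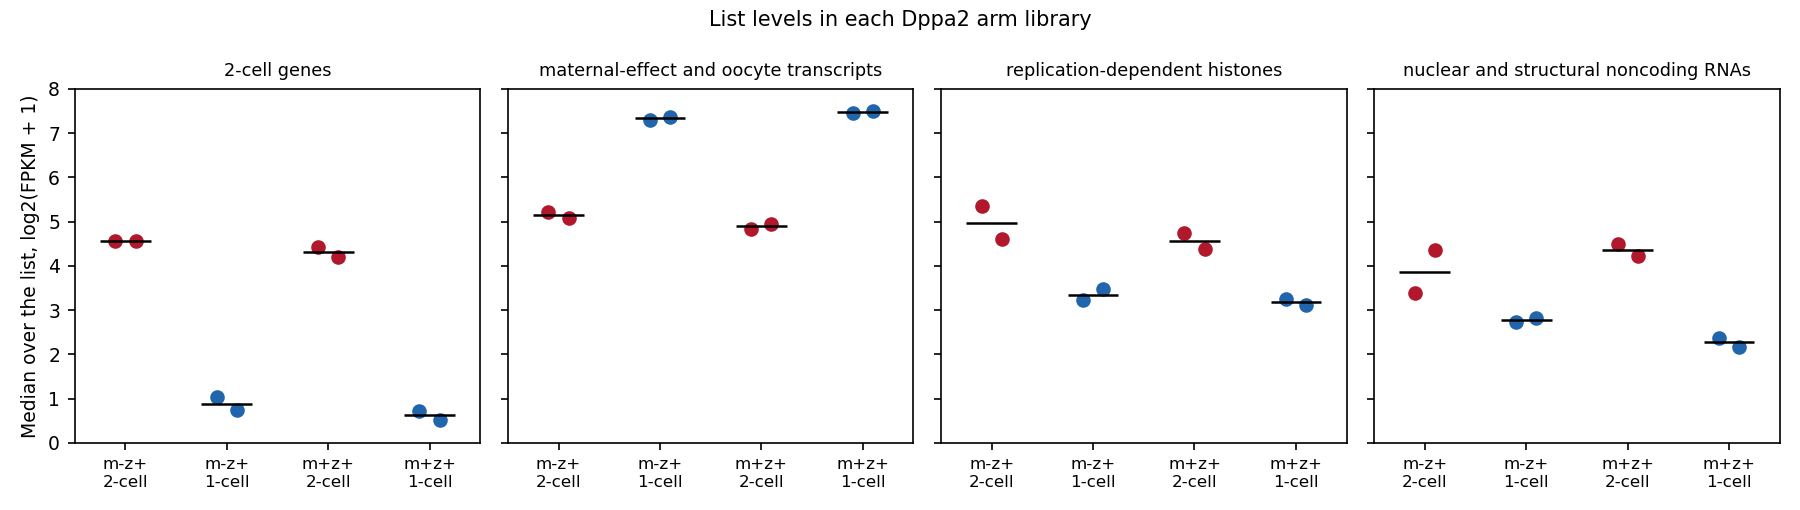
Median log2(FPKM + 1) over the tested genes of 4 lists in each Dppa2 arm library, 2-cell in red and 1-cell in blue, m-z+ left of m+z+, with 1 point per library and a bar at the mean. Maternal transcripts are at 5.22 and 5.08 in 2-cell m-z+ libraries and 4.84 and 4.95 in 2-cell m+z+ libraries, and the 2 m-z+ 2-cell libraries are furthest apart in the noncoding RNAs.

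Against Dppa4 m-z+ embryos, 6 genes (0.0398% of 15068) passed for the difference of stage changes, Dppa2 among them. Dppa2 alone passed under every other setting tried. Of the 6 calls, 1 remained where the fit held only the 4 m-z+ groups and 3 with TPM scaling or a pseudocount of 0.1. In Dppa4 m-z+ embryos 3812 genes (25.3%) rose and 3767 (25%) fell. The mutated gene and the strain background both differ between the groups, and this comparison cannot tell them apart. The stage change of Dppa4 m+z+ embryos, the controls of the Dppa4 arm, was not tested against that of either group. Ablim1, an actin-binding LIM protein gene, had 4.06 and 2.73 FPKM at the 2-cell stage, against 30.2 and 34.9 FPKM at the 1-cell stage, in Dppa2 m-z+ embryos, and 14.9 and 16.3 FPKM, against 20.2 and 24.0 FPKM, in Dppa4 m-z+ embryos (difference of log2 changes -2.47, SE 0.32, adjusted p = 0.018). Dppa2 m+z+ embryos had 5.04 and 3.39 FPKM, against 32.9 and 33.4 FPKM, so the stage values of m-z+ and m+z+ embryos lay close together in this gene. The noncoding model RP23-145H8.2 had 8.27 and 7.73 FPKM in 2-cell Dppa2 m-z+ embryos and was at 0 and 0.256 FPKM in 2-cell Dppa4 m-z+ embryos. Gm14333, a pseudogene model, had 5.21 and 4.06 FPKM in 2-cell Dppa2 m-z+ embryos and was at 0 in the 2-cell Dppa4 m-z+ libraries, and the antisense model Gm16239 had 6.55 and 3.5 FPKM and 0.0353 and 0 FPKM in these groups. Mir8092, a microRNA model, had 1.59 and 3.28 FPKM at the 2-cell stage, against 0.167 and 0.654 FPKM at the 1-cell stage, in Dppa2 m-z+ embryos, and 0.769 and 0.202 FPKM, against 6.11 and 11.8 FPKM, in Dppa4 m-z+ embryos. In Gm14333, Gm16239 and RP23-145H8.2 the 2-cell m+z+ embryos of the Dppa2 arm also held RNA, at 3.53 and 1.95 FPKM of Gm14333, 3.66 and 3.95 FPKM of Gm16239 and 2.15 and 2.1 FPKM of RP23-145H8.2. The number that passed was 181 on leaving out replicate 2 of the 2-cell Dppa2 m-z+ pair and 17 on leaving out replicate 1. It was 22 on leaving out replicate 2 of the 2-cell Dppa4 m-z+ pair and 1 on leaving out replicate 2 of the 1-cell Dppa4 m-z+ pair. With 1 library left out, between 1 and 6 of the 6 calls remained.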

How the data were processed

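The authors deposited gene FPKM tables of total RNA (SMARTer-Seq Stranded kit, 16 libraries) and of polyA RNA (16 libraries), made with HISAT2 2.1.0 and StringTie 1.3.3b on mm10, per the submitters' processing notes. Nothing used here says which annotation or strandedness option they chose. FPKM keeps no depth, so no counting interval was computed.

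The stage change was fitted with limma 3.58.1 (R 4.3.3) on log2(FPKM + 1), for 15068 of 46078 genes, those reaching 1 FPKM in 2 or more of the 16 total RNA libraries. All 16 libraries entered 1 group-means fit with trended, robust eBayes and 8 residual degrees of freedom. The fit took 1 spread per gene for all groups. Library weights estimated by limma, lower for more variable libraries, were 0.421 for each 2-cell and 1.55 for each 1-cell Dppa2 m-z+ library. With these weights 4043 genes were called higher and 3850 lower at the 2-cell stage in Dppa2 m-z+ embryos. Adjusted p-values are Benjamini-Hochberg values over all genes tested, and log2 changes understate those of low genes. Differences of stage changes were interaction contrasts of the same fit. The test was also run on simulated data with known changes. These were planted only in genes well above 0 at the 1-cell stage, with the same spread per gene in every library. That run therefore does not cover rises from near 0 or the unequal spread of the stages. Gene types and positions came from GENCODE M21, which held 98.2% of the gene IDs, and promoters from RefSeq. The polyA libraries were used only to describe levels and the stage changes of wild-type embryos, without a test.

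Replicate numbers were not used to pair the samples in the main fit. The deviations of same-numbered libraries correlated at -0.018, -0.036, 0.139 and -0.061 in the 4 genotype groups. With 2 libraries per stage in each group, these values cannot show whether same-numbered libraries shared mothers or a batch. Other pseudocounts, filters, scalings, weights, blocks and left-out libraries were tried.

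The comparison, the 32 gene lists and the rules for naming genes were chosen with earlier results of these data known. Genes were named as the 10 highest rises and falls among genes with a mean of at least 10 FPKM in the higher stage and no overlap between stages (Gm, Rik and similar model names left out), up to 5 absent at 1 stage, up to 3 in each direction per list, the 5 with the smallest p for each difference, the 5 most abundant in each stage, and markers. Genes named as further list members in a count were chosen after their values were seen.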

Additional observations from a re-analysis of the deposited data

Results flagged for a closer look

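Stage changes of 6 genes differed between Dppa2 m-z+ and Dppa4 m-z+ embryos by the interaction test of limma at an adjusted p under 0.05. The difference, Dppa2 m-z+ minus Dppa4 m-z+, was 2.62 for Dppa2 and -2.47 for Ablim1 on the log2(FPKM + 1) scale. It was 3.97 for Mir8092, 3.0 for RP23-145H8.2, 2.49 for Gm14333 and 2.37 for Gm16239. The mutated gene and the strain background both differ between these groups.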

How the results depend on the processing

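The numbers of genes higher and lower at the 2-cell stage in Dppa2 m-z+ embryos, 4346 and 4286, stayed within 1.5 times under all 14 alternatives, with 3794 and 5098 under TPM scaling, 4669 and 3972 under median-ratio scaling, and 3528 to 4207 and 3560 to 4137 with 1 library left out. Of 225 named genes tested, 204 kept their direction and their side of the threshold throughout and 19 changed side. The changes of 3 genes that did not pass turned sign or fell to 0 with 1 m-z+ 2-cell library left out, with values from -0.15 to 1.04 for Areg, -0.51 to 1.18 for Gm23935 and 0 to 1.05 for Tnp1.

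The count of genes whose stage change differed from m+z+ embryos, 0 as fitted, was 2 with a pseudocount of 0.1, 41 without the filter on low values, 5 with TPM scaling, 3 with median-ratio scaling and 9 with eBayes without trend and robust. It ran from 0 to 154 with 1 library left out, and 154 was without m-z+ 2-cell replicate 2, which then leaves 1 library taken to vary like the other groups. The count against Dppa4 m-z+ embryos, 6 as fitted, was 35 without the filter and ran from 1 to 181 with 1 library left out. The lower Dppa2 level of 1-cell m-z+ embryos, -1.68, did not pass where only the Dppa2 arm was fitted (adjusted p = 0.0978), and the 2-cell difference of Dppa2, 0.01, ran from -0.19 to 0.20 with 1 library left out. The cause of these changes was not tested.

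With the replicate number as a block, 4264 genes rose and 4137 fell. In that fit 0 genes differed in stage change from m+z+ embryos and 3 from Dppa4 m-z+ embryos, 1 of them among the 6. Whether the numbers pair the samples is not known. With 2 libraries per group and no counts, the precision of low values is unknown.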

Other observations

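The polyA libraries of wild-type B6 embryos, 2 for each stage, read the same transition through RNA with a poly(A) tail, in another strain and without a test of the difference between the assays. Of the genes that rose in total RNA of Dppa2 m-z+ embryos, 3964 (91.2%) had a higher mean at the 2-cell stage in polyA RNA, and of those that fell 3666 (85.5%) had a lower one, where 53.3% of all tested genes were higher. Replication-dependent histone genes had a median log2 change of 1.67 in total RNA of m-z+ embryos and -0.26 in wild-type polyA RNA. Nuclear respiratory chain genes stood at -0.77 in total RNA and 0.93 in polyA RNA, proteasome genes at -1.16 and 0.18, and aminoacyl-tRNA synthetase genes at -0.77 and 0.23. Cytoplasmic ribosomal protein genes were at 1.15 in total RNA and 2.80 in polyA RNA, while 2-cell genes were at 3.13 and 3.53 and maternal transcripts at -1.90 and -2.19. Dppa2 was at 92.4, 87.4 and 63.3 FPKM in the polyA libraries of 2-cell Dppa2 m-z+ embryos, and at 123 and 69.6 FPKM in wild-type 2-cell and 134 and 94.2 FPKM in wild-type 1-cell embryos.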
